A study of Mus musculus with 9 samples.

Results

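The 36 mature miRNAs described here are the products of the miR-379 to miR-410 cluster of mouse chromosome 12 other than those of the family of miR-376, miR-300 and miR-381. They were taken by name from the 1966 mature miRNAs of a read count table and come from 24 hairpins. Small RNA was sequenced from the quadriceps of 9 mice aged 90 days, with 1 library per mouse and 3 mice per group. WT mice were C57BL/6J with intact Mbnl1 and Mbnl2. Mbnl1KO mice were C57BL/6J and carried Mbnl1{delta}E3/{delta}E3 with Mbnl2+/+, whereas Mbnl2KO mice carried Mbnl1+/+ on the B6.C-Tg(CMV-cre)1Cgn/J background, whose Cre is driven in most tissues by the CMV promoter. The Mbnl2 alleles of the latter group differed by label, with Mbnl2{delta}E2/{delta}E2, Mbnl2{delta}E2/{delta}E3 and Mbnl2{delta}E2/{delta}E4 in the 3 mice, whereas the paper names Mbnl2{delta}E2 alone, and which holds for each mouse was not settled. In comparisons with Mbnl2KO the background, the Cre transgene and the loss of Mbnl2 cannot be told apart. Loss of the Mbnl1 and Mbnl2 transcripts could not be checked in small RNA.

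The cluster lies in the imprinted Dlk1-Dio3 domain, where long noncoding RNAs and miRNAs are expressed from the maternal chromosome and processed from long polycistronic transcripts. Its miRNAs are abundant in embryonic and newborn tissues and in neurons, and in skeletal muscle the transcription factor MEF2A is known to activate the locus. Each hairpin can release a miRNA from its 5′ arm (5p) and another from its 3′ arm (3p), and the bases 2 to 8 of a mature miRNA, the seed, pair with target mRNAs. The paralogs MBNL1 and MBNL2 bind YGCY-like sequences in RNA and control the choice of exons during splicing. The comparison of Mbnl1KO with WT asked how the loss of Mbnl1 changes these miRNAs in muscle, and the comparisons with Mbnl2KO asked whether loss of its paralog does the same.

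On GRCm38.p6 the 24 hairpins lay on the plus strand of chromosome 12 between 109709060 (miR-379) and 109743795 (miR-410), a span of 34.7 kb. The 5 excluded hairpins (miR-376a, miR-376b, miR-376c, miR-300 and miR-381) all sat between miR-543 and miR-487b. RefSeq placed the last 7 hairpins, miR-154 to miR-410, inside Mirg, the long noncoding RNA of the cluster (chromosome 12, 109734981 to 109749458), and miR-485 ended 6 bases before its start. In GENCODE on GRCm39, where Mirg is longer, 13 hairpins lay outside it, 4 within its exons, 4 partly in exons and 3 in introns.

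RefSeq held the mature sequence of 33 of the 36 miRNAs, and miR-487b-3p, miR-539-3p and miR-485-5p are given by name only. The miRNAs with a large change in Mbnl1KO are shown first, with the seed in capitals.
mmu-miR-543-3p: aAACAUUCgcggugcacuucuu
mmu-miR-495-3p: aAACAAACauggugcacuucuu
mmu-miR-541-5p: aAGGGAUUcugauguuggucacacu
mmu-miR-412-5p: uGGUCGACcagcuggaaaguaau
mmu-miR-369-5p: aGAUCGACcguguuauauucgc
mmu-miR-369-3p: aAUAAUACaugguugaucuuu
miR-543-3p and miR-495-3p, from neighbouring hairpins, were alike in 18 of 22 bases. Counted from the 5′ end, they differed by U6A, U7A, G9A and C10U, the first pair of which lies in the seed. The sequences of the abundant miR-411-5p and of the miRNAs that passed no test in Mbnl1KO, with the other arm where its behaviour differed, follow.
mmu-miR-411-5p: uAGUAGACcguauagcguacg
mmu-miR-379-5p: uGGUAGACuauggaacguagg
mmu-miR-380-5p: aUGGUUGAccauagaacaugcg
mmu-miR-323-3p: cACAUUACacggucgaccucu
mmu-miR-329-5p: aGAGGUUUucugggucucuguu
mmu-miR-329-3p: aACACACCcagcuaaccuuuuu
mmu-miR-134-5p: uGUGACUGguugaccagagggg
mmu-miR-668-3p: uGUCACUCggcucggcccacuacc
mmu-miR-154-5p: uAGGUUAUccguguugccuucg
mmu-miR-154-3p: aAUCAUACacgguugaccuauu
A single pair of the 33 shared a seed, and these arms, shown for that reason, differed by U10C and U22C.
mmu-miR-379-3p: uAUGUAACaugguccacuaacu
mmu-miR-411-3p: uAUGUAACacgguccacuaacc
The letters ACANGG, looked for after the sequences were seen and on the strand of the miRNA, stood in 8 of the 19 3p arms with a sequence (42.1%) and in 12 of 690 other mouse 3p arms (1.74%). Of the 7 tested miRNAs among these 8, 6 were upregulated in Mbnl1KO and miR-323-3p was not, with log2 fold changes from -0.89 (miR-323-3p) to 1.78 (miR-369-3p). Of all 28 tested cluster miRNAs 21 were upregulated, and 18.9% of all tested miRNAs, so the share among those with the letters was near that of the cluster.

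Total counts per library ran from 4761271 to 6277018, and 34 of the 36 miRNAs had at least 1 count. Levels are given as CPM (counts scaled to a common library size by edgeR's TMM factors), on which 1 count was worth 0.13 to 0.221 CPM. Together the 36 miRNAs took 0.0495% ± 0.000759 (SD, n = 3) of all counts in WT, 0.165% ± 0.0137 in Mbnl1KO and 0.0556% ± 0.0137 in Mbnl2KO. The 3 Mbnl1KO libraries (0.176%, 0.15% and 0.17%) stood above all others, of which the Mbnl2KO replicate 2 was the highest at 0.0712%. With the counts of miR-1a-3p, which took 61.4% to 73.7% of each library, left out of the total, the shares were 0.167% ± 0.00253, 0.475% ± 0.0178 and 0.185% ± 0.0282. In whole muscle, a larger number of cells that express these miRNAs and more miRNA per cell cannot be told apart.

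Loss of Mbnl1 went with higher levels of most cluster miRNAs. Of the 28 that passed the filter (normalized counts averaging above 10 in the libraries compared), 21 were upregulated and 0 downregulated by edgeR's quasi-likelihood test at an adjusted p under 0.05, with a median log2 fold change of 1.12. Over all 317 miRNAs tested, 18.9% were called higher and 14.2% lower, with a median log2 fold change of -0.01. In 20 of the 28 every Mbnl1KO library lay above every WT library, which held for 22.1% of all tested miRNAs. The filter is passed more easily by a miRNA that is high in a group. Among the 21, miR-377-5p passed it only through Mbnl1KO, so its call is no support for a rise. Its counts were 1, 3 and 11 in WT and 31, 13 and 12 in Mbnl1KO. The 36 were therefore also fitted without the filter. Then 31 of the 34 with a count had a log2 fold change above 0, beside 51.9% of all 846 miRNAs with counts.

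The largest change was that of mmu-miR-487b-3p, at 26.2, 26.1 and 14.6 CPM in WT and 163, 141 and 182 CPM in Mbnl1KO. All Mbnl1KO libraries were far above all WT libraries, and the log2 fold change was 2.85 ± 0.19 (SE) with an adjusted p of 7.84e-24 in edgeR. mmu-miR-369-5p, from the penultimate hairpin, had 6.79, 4.75 and 3.87 CPM in WT against 22.2, 31.7 and 34.3 CPM in Mbnl1KO (2.50 ± 0.26 on the log2 scale, adjusted p = 3.37e-14). mmu-miR-543-3p had 8.67, 8.82 and 11.8 CPM against 53.6, 49.1 and 58.1 CPM, with a log2 fold change of 2.46 ± 0.21 (adjusted p = 7.73e-19). In these 3 miRNAs no Mbnl1KO library came near the WT range.

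Next came miR-412-5p, miR-541-5p and miR-369-3p, all from the far end of the cluster. miR-412-5p was a rare product, with 2.26, 3.39 and 1.29 CPM in WT and 13.1, 5.95 and 8.77 CPM in Mbnl1KO (log2 fold change 1.97 ± 0.36, adjusted p = 3.9e-06). For miR-541-5p, with the most deposited counts of the 36 miRNAs over the 9 libraries, 84.1, 72.3 and 88.3 CPM in WT stood against 302, 324 and 328 CPM (1.96 ± 0.16 on the log2 scale, adjusted p = 3.91e-20). Relative to the mean, the Mbnl1KO replicates of miR-541-5p were the tightest of these 6, with an SD of 13.8 CPM around 318 CPM. In miR-369-3p, known for binding AU-rich elements of Tnf mRNA, 20.4, 24.4 and 21.9 CPM rose to 76.3, 82.1 and 72 CPM (1.78 ± 0.18, adjusted p = 1.41e-14).

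The other 15 upregulated miRNAs had log2 fold changes from 0.45 (miR-382-5p) to 1.73 (miR-495-3p). The abundant members among them behaved unequally. miR-495-3p had 38.8, 35.5 and 38.5 CPM in WT and 118, 131 and 124 CPM in Mbnl1KO (adjusted p = 3.3e-15). miR-411-5p, with the most deposited counts of the 36 in WT, had 134, 108 and 95.6 CPM in WT and 188, 245 and 291 CPM in Mbnl1KO (1.1 ± 0.16 on the log2 scale, adjusted p = 2.4e-08). Its Mbnl1KO libraries were more scattered than those of miR-541-5p, though still above all WT libraries. In miR-382-5p the groups were close, at 57.7, 48.5 and 58.6 CPM against 78, 70.2 and 77.4 CPM (0.45 ± 0.17, adjusted p = 0.032). Its 3p partner had 30.4, 35.1 and 28.6 CPM against 41.8, 40.6 and 47.9 CPM (0.47 ± 0.19, adjusted p = 0.0429). Both arms of miR-382 were higher in every Mbnl1KO library, but by less than the other upregulated miRNAs.

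**Figure D1:**
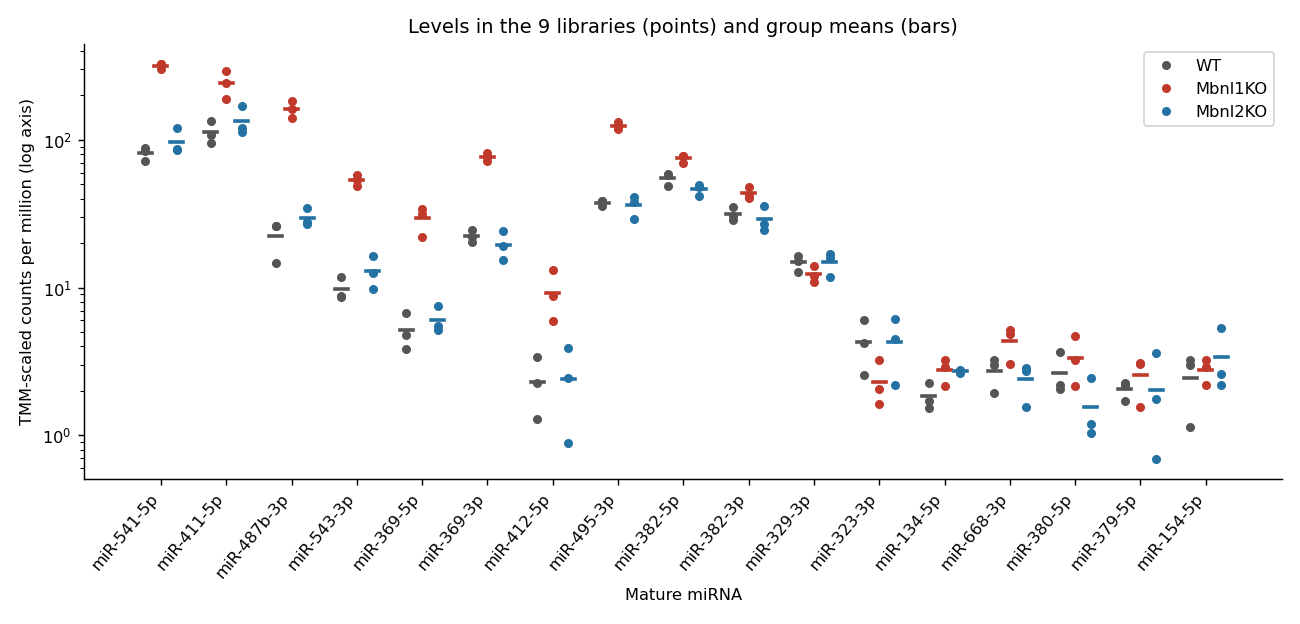
TMM-scaled CPM (log axis) of 17 cluster miRNAs in WT, Mbnl1KO and Mbnl2KO, with 3 points per group for the libraries and a bar for their mean. The 6 miRNAs with the largest change in Mbnl1KO lie clear of WT and Mbnl2KO, while the 7 at the right, from miR-329-3p on, overlap between the groups or differ little.

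A call was lost in at least 1 alternative for 5 of the 21 miRNAs, namely miR-379-3p, miR-494-3p, miR-382-5p, miR-382-3p and miR-377-5p, whereas 16 were called in every alternative in which they were tested. The largest adjusted p over those alternatives was 0.132 for miR-379-3p, 0.0663 for miR-494-3p, 0.156 for miR-382-5p, 0.152 for miR-382-3p and 0.213 for miR-377-5p. The call of miR-379-3p was lost without WT replicate 1, WT replicate 2, Mbnl1KO replicate 1 or Mbnl1KO replicate 3, and so was that of miR-382-5p. The former was also lost with DESeq2, the latter with the replicate number as a block, and both with no filter beyond 1 count. That of miR-494-3p was lost without WT replicate 3 or Mbnl1KO replicate 3, and that of miR-382-3p when any 1 of the 3 WT libraries or Mbnl1KO replicate 3 was left out. The call of miR-382-3p was the least stable, kept in 6 of 15 alternatives, and was lost too with DESeq2, with its size factors in edgeR, with the replicate block, with all 9 libraries in 1 fit and with no filter beyond 1 count. Among the upregulated miRNAs, miR-377-5p alone overlapped between the groups after TMM scaling, at 0.189, 0.509 and 2.36 CPM in WT and 4.02, 2.34 and 1.75 CPM in Mbnl1KO. Its call was lost without WT replicate 1 or WT replicate 2, with DESeq2 and with all 9 libraries in 1 fit. Since miR-377-5p passed the filter only through Mbnl1KO, the call does not support a rise.

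The 7 tested miRNAs that were not called came from the first hairpins of the cluster (miR-379, miR-380, miR-323 and miR-329) and from miR-134, miR-668 and miR-154 further on. miR-323-3p was the only one with an estimate well below 0. It had 6.03, 4.24 and 2.58 CPM in WT and 2.08, 1.62 and 3.21 CPM in Mbnl1KO, and its log2 fold change was -0.89 ± 0.38 with an adjusted p of 0.0573 in edgeR. The groups overlapped through WT replicate 3 and Mbnl1KO replicate 3. Without either of these libraries it was called lower, with an adjusted p of 0.024 and 0.0376, and with DESeq2's size factors the value was 0.0471, in a range of 0.024 to 0.337 over all alternatives.

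miR-329-3p was not rare, at 12.8, 15.3 and 16.3 CPM in WT and 11.9, 11 and 14 CPM in Mbnl1KO. Its log2 fold change of -0.26 ± 0.26 (adjusted p = 0.447) became 0.03 with library totals in place of TMM, a scaling that moved the median of all tested miRNAs to 0.28. The remaining 5 were rare, each with group means under 5 CPM. miR-668-3p had 3.02, 3.22 and 1.93 CPM in WT and 5.19, 3.07 and 4.82 CPM in Mbnl1KO (0.67 ± 0.37 on the log2 scale, adjusted p = 0.147). For miR-134-5p, a regulator of Limk1 translation in neuronal dendrites, 2.26, 1.53 and 1.72 CPM stood against 3.24, 2.16 and 2.92 CPM (0.61 ± 0.41, adjusted p = 0.251). In both the groups overlapped through 1 library of each. miR-668-3p was called with library totals (adjusted p = 0.0347) and without Mbnl1KO replicate 2 (adjusted p = 0.0488), in a range of 0.0347 to 0.401 over its alternatives.

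miR-380-5p had 2.07, 2.21 and 3.65 CPM in WT and 3.24, 2.16 and 4.68 CPM in Mbnl1KO, with a log2 fold change of 0.37 ± 0.38 (adjusted p = 0.475). For miR-379-5p the value was 0.28 ± 0.41 (adjusted p = 0.645). The counts of miR-379-5p were 12, 13 and 8 in WT and 12, 17 and 21 in Mbnl1KO. The rarity of miR-379-5p and its missing call are properties of the deposited counts, which may not come from the read assignment that the paper's methods describe, and its level in muscle cannot be read from them. miR-154-5p, with 6, 19 and 14 counts against 25, 16 and 15, gave 0.17 ± 0.40 (adjusted p = 0.784), which turned negative without WT replicate 1. These low counts left wide errors, and a smaller change was not detectable in the deposited counts.

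Of the 8 miRNAs below the filter, miR-654-3p and miR-487b-5p were listed at 0 in all 9 libraries, and miR-758-3p and miR-539-3p had at most 2 counts in any library. The other 4 had more counts in every Mbnl1KO library than in any WT library, which held for 5.86% of the 529 miRNAs below the filter with a count in these libraries. A place among the 529 needs only 1 count, too few for such a separation, so that share is not matched in level to these 4. miR-411-3p had 2, 1 and 2 counts in WT and 14, 12 and 14 in Mbnl1KO. miR-667-3p went from 7, 3 and 3 to 21, 9 and 16 counts, and miR-380-3p from 2, 2 and 1 to 9, 4 and 7. miR-410-3p, which targets the WNT antagonist Sfrp2, had 7, 3 and 2 counts against 11, 12 and 10. As for miR-379-5p, the level of miR-410-3p in muscle cannot be read from these counts. These 4 were below the filter with all 6 libraries and not tested there. miR-667-3p passed it in 2 analyses with a library left out and was not called (largest adjusted p 0.124, edgeR).

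Along the cluster the change was uneven rather than a steady slope. Spearman's rank correlation between the log2 fold change in Mbnl1KO and the position of the hairpin was 0.52 over the 28 tested miRNAs, given as a description since arms of 1 hairpin and neighbours share a transcript. It was 0.45 over the more abundant arm of each of 20 hairpins and 0.22 over the 13 miRNAs with a mean above 100. Among the first 12 hairpins 7 of 11 tested miRNAs were upregulated with a median log2 fold change of 1.02, and among the last 12 hairpins 14 of 17 with a median of 1.48. The level of a miRNA in WT (rank correlation 0.15, 28 miRNAs), the GC content of its sequence (-0.21, 26 miRNAs) and the length of its hairpin (0.17, 28 miRNAs) ran less closely with the change.

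**Figure D2:**
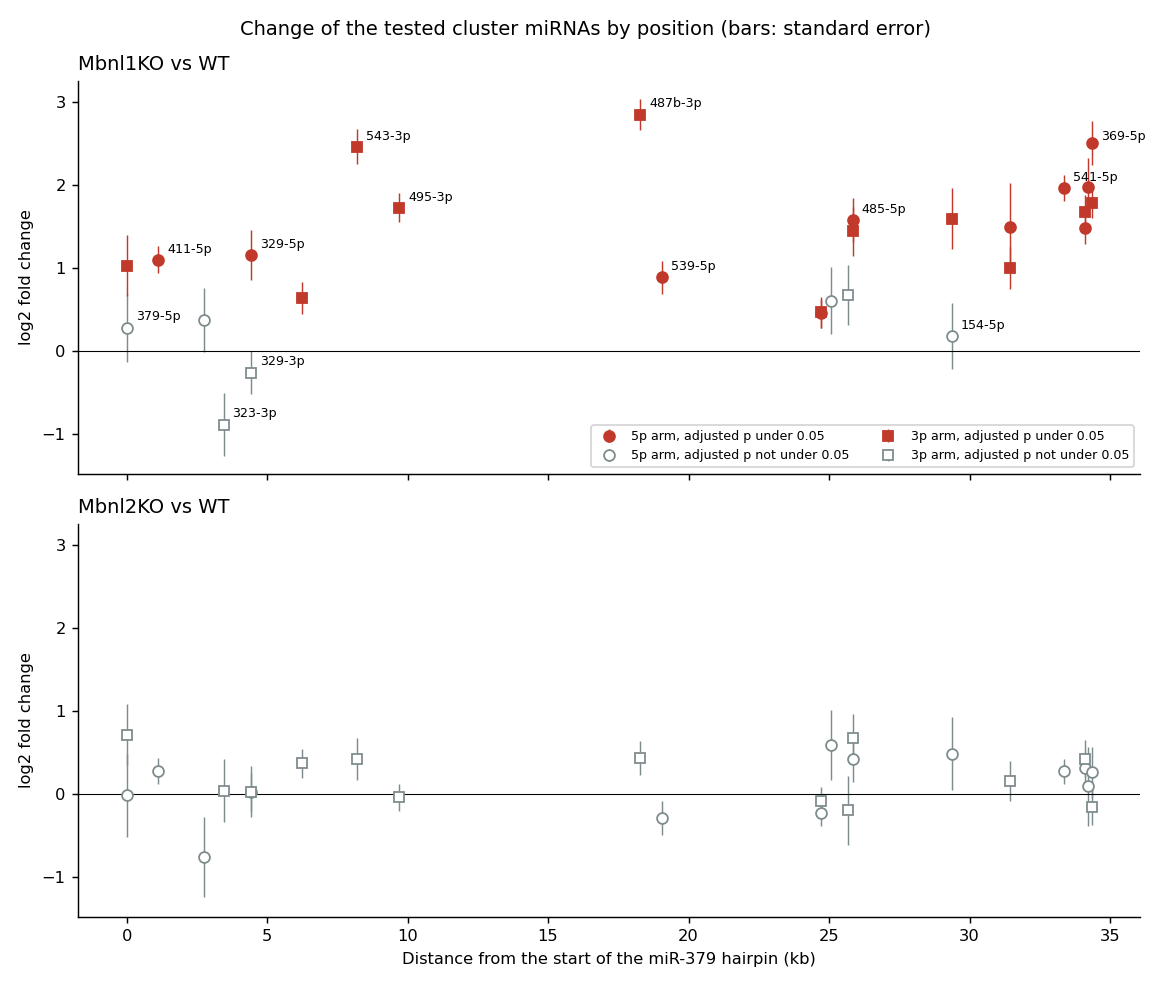
log2 fold change with its standard error against the distance of the hairpin from the start of miR-379 in kb, for Mbnl1KO vs WT (top, 28 miRNAs) and Mbnl2KO vs WT (bottom, 26 miRNAs). Circles are 5p and squares 3p arms, filled where the adjusted p was under 0.05. In Mbnl1KO values are mixed from 0 to 6.26 kb (-0.89 to 1.15), high from miR-543 to miR-487b, low again near 25 kb and high at the far end, and in Mbnl2KO no point is filled.

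The pattern was closer to 4 stretches, whose limits were drawn after the values were seen and to which no test was applied. From miR-379 to miR-494, 4 of 8 tested miRNAs, miR-379-5p with its unreadable level included, were upregulated and the median log2 fold change was 0.51. From miR-543 to miR-487b all 3 tested miRNAs were upregulated, from 1.73 to 2.85. In the 4 hairpins from miR-539 to miR-668 the 5 tested miRNAs ran only from 0.45 to 0.88, and 3 of them were called. From miR-485 to miR-410, the stretch in or beside RefSeq's Mirg, 11 of 12 were upregulated with a median of 1.58, the exception being miR-154-5p. The 11 include miR-377-5p, which passed the filter only through Mbnl1KO.

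The sharpest step between neighbours was that from miR-487b-3p (2.85) to miR-539-5p (0.88), whose hairpins start 0.796 kb apart. Since both are counted in the same library, their ratio needs no scaling. miR-487b-3p had 1.39, 1.08 and 0.673 counts per count of miR-539-5p in WT, 4.03, 3.92 and 4.22 in Mbnl1KO and 1.67, 1.68 and 1.82 in Mbnl2KO. Thus the order of these neighbours was nearly even in WT and clearly in favour of miR-487b-3p in Mbnl1KO, without overlap. The Mbnl2KO ratios also lay above every WT library, though below every Mbnl1KO library. The next step, from miR-494-3p to miR-543-3p over 1.94 kb, went the other way. miR-494-3p exceeded miR-543-3p in WT, with ratios of 3.15, 3.17 and 1.80, and fell behind it in Mbnl1KO, with 0.649, 0.772 and 0.812. In Mbnl2KO the ratios of 3.20, 2.07 and 2.60 stayed near those of WT.

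These unequal changes altered the make-up of the cluster's miRNAs in the deposited counts. The shares and ranks that follow hold for those counts alone, in which miR-379-5p and miR-410-3p, whose levels cannot be read from them, take almost no part. The stretch from miR-543 to miR-487b supplied 13.3% ± 0.379 of the 36 miRNAs' counts in WT, 23.7% ± 1.2 in Mbnl1KO and 13.6% ± 0.631 in Mbnl2KO (SD, n = 3). The stretch from miR-539 to miR-668 went from 21.2% ± 1.15 to 11.5% ± 0.934, and was at 16.8% ± 0.676 in Mbnl2KO, also below every WT library. The first stretch went from 32.0% ± 2.45 to 22.2% ± 2.58, and the last from 33.5% ± 1.79 to 42.6% ± 1.86. miR-411-5p led in every WT library, with 23.7%, 20.8% and 18.8% of the counts, and miR-541-5p, with 14.9%, 13.9% and 17.3%, came after it. In Mbnl1KO miR-541-5p led in all 3 libraries, with 22.4%, 22.7% and 21.1% against 13.9%, 17.2% and 18.7% for miR-411-5p. The Mbnl2KO libraries kept the order of WT.

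**Figure D3:**
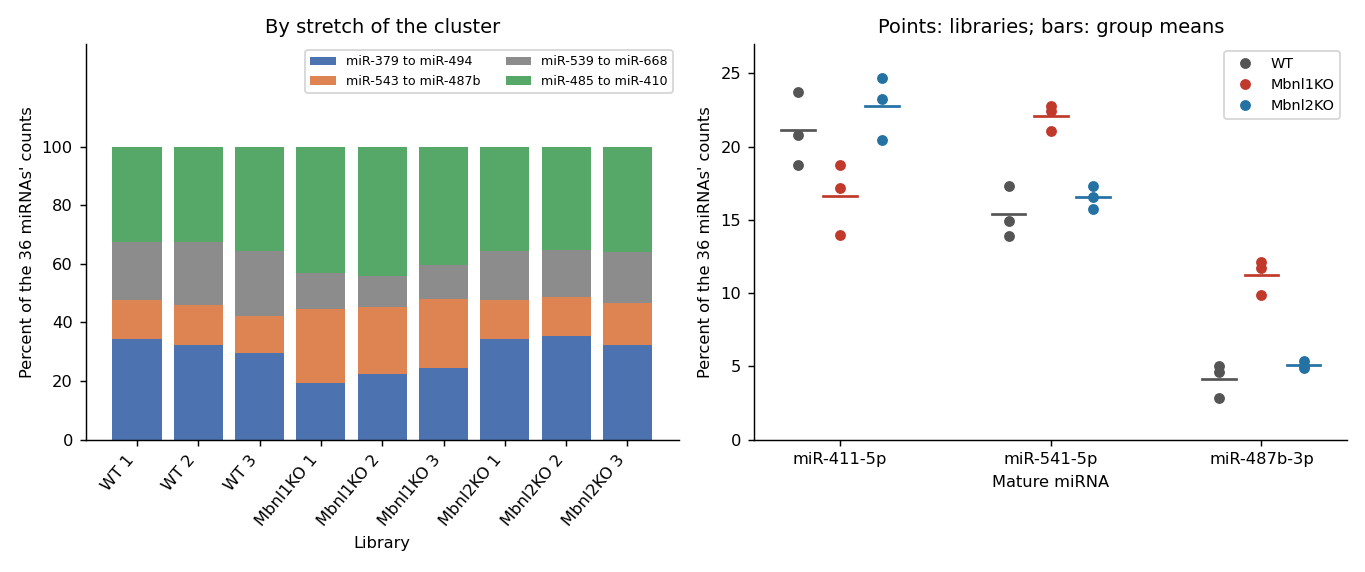
Left, percent of the 36 miRNAs' counts from each of the 4 stretches of the cluster in each of the 9 libraries. Right, percent taken by miR-411-5p, miR-541-5p and miR-487b-3p, with 3 points per group and a bar for the mean. The share of the miR-543 to miR-487b stretch rises from 13.3% in WT to 23.7% in Mbnl1KO, and miR-541-5p passes miR-411-5p there.

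A ratio of the summed counts of the last 12 hairpins to those of the first 12 did not show the slope. It was 1.1, 1.18 and 1.36 in WT, 1.25, 1.21 and 1.08 in Mbnl1KO and 1.1, 1.05 and 1.14 in Mbnl2KO, and all groups overlapped. Without the most abundant miRNA of each set (miR-411-5p and miR-541-5p) it fell from 1.63 ± 0.076 in WT to 1.09 ± 0.0499 in Mbnl1KO, with 1.44 ± 0.0258 in Mbnl2KO. On this ratio the Mbnl2KO libraries also lay below every WT library. The first 12 hairpins hold miR-543-3p, miR-495-3p and miR-487b-3p, which carried much of their summed counts in Mbnl1KO.

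Of the 8 hairpins with both arms tested, miR-382, miR-485, miR-377, miR-409 and miR-369 had both arms upregulated in Mbnl1KO, and miR-379, miR-329 and miR-154 had 1 arm upregulated. The 5p arm of miR-377 passed the filter only through Mbnl1KO, so its call does not support a rise of both arms. In all, 10 of 14 tested 5p arms, miR-377-5p included, and 11 of 14 tested 3p arms were upregulated, with medians of 1.12 and 1.23 on the log2 scale. The log2 ratio of 5p to 3p counts was tested with limma over 78 hairpins with a mean count of at least 10 in both arms, of which 6.41% were called, and 9 of them belonged to the 24. miR-329 was called. Its 5p arm had 33, 28 and 25 counts in WT and 95, 79 and 68 in Mbnl1KO, while its 3p arm had 68, 90 and 76 against 92, 61 and 96. The log2 fold change of the 5p arm, miR-329-5p, was 1.15 ± 0.30 (adjusted p = 0.00131, edgeR). The 5p arm was 0.489, 0.315 and 0.333 times its partner in WT and 1.03, 1.29 and 0.71 times in Mbnl1KO. The log2 shift was 1.40 ± 0.30 (adjusted p = 0.000464, limma), and it was called with each of the 6 libraries left out in turn. An exact permutation test of this ratio gave a two-sided p of 0.1, the smallest that 3 against 3 mice allow.

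miR-154 shifted the other way, towards its 3p arm, though short of the threshold. The 3p arm had 9, 15 and 8 counts in WT and 42, 28 and 53 in Mbnl1KO, and was itself upregulated (log2 fold change 1.59 ± 0.37, adjusted p = 0.000283, edgeR), unlike the 5p arm. The ratio of 5p to 3p was 0.684, 1.26 and 1.71 in WT and 0.6, 0.579 and 0.29 in Mbnl1KO, without overlap. Its log2 shift was -1.29 ± 0.43 (adjusted p = 0.056, limma), and over its alternatives the adjusted p ran from 0.0133 without WT replicate 1 to 0.44 without Mbnl1KO replicate 3. It was under the threshold in 2 of the 6 analyses with a library left out (the other being 0.0204 without Mbnl1KO replicate 2), with a pseudocount of 5 (0.0155) and with the replicate block (0.043), and not with a minimum of 1 count (0.0995). For miR-369 the shift of 0.72 ± 0.27 had an adjusted p of 0.0848, which ran from 0.0107 without WT replicate 1, where it was called, to 0.549 without Mbnl1KO replicate 3. Both of its arms were upregulated. The smallest shifts were those of miR-382 (-0.02 ± 0.17) and miR-485 (0.10 ± 0.30), whose arms moved alike within the error. Below the minimum count, the 5p arm of miR-543 had 4, 5 and 6 counts in WT and 3, 3 and 2 in Mbnl1KO, while its 3p arm rose as given above. With a minimum of 1 count this hairpin was called too (shift -3.59 ± 0.68, adjusted p = 3.35e-05, limma).

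**Figure D4:**
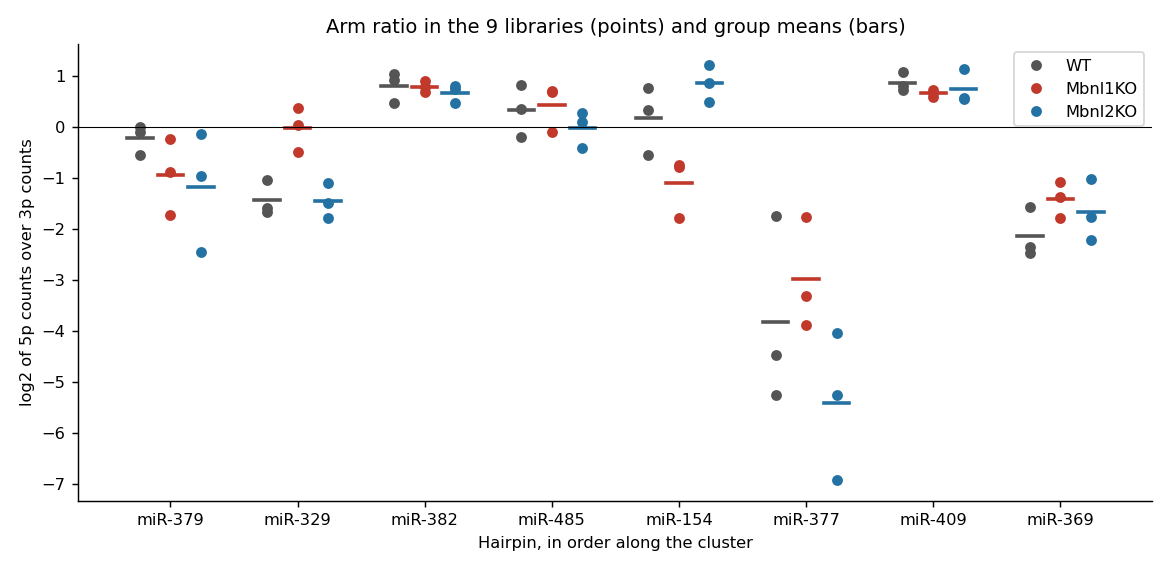
log2 of 5p counts over 3p counts for the 8 tested hairpins of which both arms are among the 36 miRNAs, in cluster order, with 3 points per group for the libraries and a bar for their mean. miR-329 is the hairpin whose Mbnl1KO libraries, at -0.49 to 0.37, lie above WT and Mbnl2KO, and miR-154 lies below both in Mbnl1KO.

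In the deposited counts, loss of Mbnl2 left no tested cluster miRNA past the threshold. Of 26 tested, 0 were called in Mbnl2KO against WT by edgeR and 0 by DESeq2's Wald test, 3 had an unadjusted p under 0.05, and the median log2 fold change was 0.21. Over all 293 miRNAs tested 5.8% were called in either direction. In 5 of the 26 all Mbnl2KO libraries were above all WT libraries, beside 11.6% of all tested miRNAs. The smallest adjusted p was 0.203, for miR-485-3p, with 7.73, 5.43 and 4.08 CPM in WT and 7.64, 11.3 and 8.4 CPM in Mbnl2KO (0.68 ± 0.29 on the log2 scale). miR-494-3p and miR-487b-3p followed with 0.37 ± 0.17 (adjusted p = 0.267) and 0.43 ± 0.21 (adjusted p = 0.274). Mbnl2KO replicate 2 was the highest library of its group in many of these miRNAs, including miR-541-5p at 120 CPM beside 85.8 and 86.4 CPM. miR-379-5p, whose level cannot be read from these counts, had 12, 13 and 8 counts in WT and 4, 21 and 8 in Mbnl2KO (-0.02 ± 0.50 on the log2 scale, adjusted p = 0.987), so whether it changed cannot be read from them either. No arm ratio was called among 70 hairpins (0%).

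Set against each other, Mbnl1KO exceeded Mbnl2KO in 18 of 27 tested cluster miRNAs and was lower in 0 (edgeR, adjusted p under 0.05), where 15.2% of 309 miRNAs were called higher. The libraries did not overlap in 20 of the 27, against 23.6% of all tested miRNAs. The Mbnl1KO libraries are the same as in the comparison with WT, so the similar list is not a separate observation. The largest differences were again those of miR-487b-3p (2.44 ± 0.17, adjusted p = 4.41e-08), miR-369-5p (2.26 ± 0.25, adjusted p = 5.31e-06) and miR-543-3p (2.05 ± 0.21, adjusted p = 2.35e-06). miR-494-3p and miR-379-3p, upregulated against WT, were not called against Mbnl2KO, with 0.29 ± 0.18 (adjusted p = 0.25) and 0.33 ± 0.31 (adjusted p = 0.421).

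Arm ratios of 3 of the 9 tested hairpins were called between the knockouts, where 13% of 77 hairpins were called by limma. They were miR-329 (shift 1.43 ± 0.28, adjusted p = 1.4e-05), miR-154 (-1.96 ± 0.42, adjusted p = 7.45e-05) and miR-377 (2.42 ± 0.85, adjusted p = 0.0403). The ratio of miR-154 was 1.82, 2.33 and 1.40 in Mbnl2KO, above every Mbnl1KO library. Its 3p arm had 8, 13 and 7 counts in Mbnl2KO against 42, 28 and 53 in Mbnl1KO. The 3p arm thus reached the minimum count only through Mbnl1KO, the filter favoured this shift, and the call at that minimum does not support it. With a minimum of 1 count the adjusted p was 0.000494 for miR-154 and 0.0234 for miR-377 (limma). The call of miR-377 rested on 31, 13 and 12 counts of its 5p arm in Mbnl1KO against 0, 4 and 1 in Mbnl2KO. This arm reached the minimum count only through Mbnl1KO, so the filter favoured a shift and the call does not support one. The hairpin was untested in Mbnl2KO against WT and without any 1 of the Mbnl1KO libraries, and its call was lost without Mbnl2KO replicate 1 (adjusted p = 0.141), without Mbnl2KO replicate 3 (adjusted p = 0.0966), with the replicate block (adjusted p = 0.169) and with a pseudocount of 5 (adjusted p = 0.449).

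Other miRNAs of the domain, listed by hairpin, gave similar counts in Mbnl1KO against WT. Of the miR-376, miR-300 and miR-381 family 5 of 7 tested were upregulated (median log2 fold change 1.58), and of the miRNAs of the Dlk1-Dio3 domain before miR-379, such as miR-127-3p and miR-434-3p, 7 of 9 (median 1.6), with 0 downregulated in either list. Of the other arms and hairpins between miR-379 and miR-410, 2 passed the filter and 1 was upregulated. In Mbnl2KO no tested miRNA of these lists was called by edgeR.

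YGCY-like letters were searched in the 24 hairpin sequences of RefSeq (median length 79 bases) on the strand of the transcript. UGCU stood in 20.8% of the 24 hairpins and in 41.6% of the 981 other mouse hairpins of the same median length, CGCU in 54.2% and 11.2%, UGCC in 37.5% and 34.8%, and CGCC in 4.17% and 9.68%. Any of these, which do not contain each other, stood in 19 of the 24 hairpins (79.2%) and in 67.8% of the others. The 16 tested miRNAs from hairpins with CGCU had a median log2 fold change of 1.12 and the 12 from hairpins without it 1.23. A match is a run of letters, not a site.

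Markers of other cells moved in part with the groups. The summed level of 7 muscle fibre miRNAs was 791003 to 902320 CPM in WT, 550333 to 720820 CPM in Mbnl1KO and 722817 to 959314 CPM in Mbnl2KO, of which miR-1a-3p is the main part. Of the 5 tested, miR-133b-3p and miR-206-3p were upregulated in Mbnl1KO. Among 8 immune and blood cell miRNAs the sum was 502 to 546 CPM in WT and 469 to 590 CPM in Mbnl1KO. Of the 6 tested, miR-155-5p was upregulated and miR-142a-5p, miR-223-3p and miR-146a-5p were downregulated. The 3 fibroblast miRNAs summed to 1258 to 1416 CPM and 1042 to 1209 CPM, with miR-199a-3p lower, and the 4 of vessels to 4927 to 5642 CPM and 4573 to 7246 CPM, with neither tested miRNA called. In Mbnl2KO the sums were 515 to 542 CPM (immune and blood), 1159 to 1600 CPM (fibroblast) and 6363 to 7217 CPM (vessel), the last above every WT library. miR-206-3p of muscle fibre (log2 fold change 0.89 ± 0.14, adjusted p = 0.00076, edgeR) and miR-143-3p of vessels (0.48 ± 0.12, adjusted p = 0.0169) were upregulated there. Of the 6 neural miRNAs, 4 (miR-9-5p, miR-9-3p, miR-153-3p and miR-219a-5p) were at 0 in all libraries and the sum never passed 0.438 CPM. miR-486a-5p, miR-142a-3p, miR-126a-3p and miR-126a-5p, from the lists of muscle fibre, blood and vessel cells, were likewise listed at 0 in all 9 libraries, so a 0 in this table does not show that a miRNA or its cell type is absent. The part of any of these cell types in the changes of the cluster was not tested.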

How the data were processed

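Small RNA libraries (NEXTflex kit) from 3 WT, 3 Mbnl1KO and 3 Mbnl2KO mice were analysed. The authors deposited raw counts of reads per mature miRNA, without normalization, and the paper describes collapsing reads and matching them to miRBase precursors without mismatches, then summing those that fell on a mature miRNA or within 2 nt of it. Whether that counting made the deposited table is not stated in it, so levels and calls here hold for that table. DESeq2 is named in the submitters' processing notes. Groups were compared in pairs, 6 libraries at a time, by the quasi-likelihood test of edgeR 4.0.16 (R 4.3.3) after TMM scaling. Tested were the miRNAs whose normalized count averaged above 10, with Benjamini-Hochberg adjustment over all miRNAs tested and a threshold of 0.05. Arm ratios, log2 of 5p over 3p counts with a pseudocount of 0.5, were tested with limma 3.58.1 over all hairpins with a mean count of at least 10 in both arms. DESeq2 1.42.0 served as an alternative. Python 3.11.15 with pandas 2.3.3, NumPy 2.4.6, SciPy 1.17.1 and matplotlib 3.10.9 was used. The code was tested on simulated data. Positions and sequences are RefSeq's on GRCm38.p6.

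All 36 miRNAs are accounted for. Full statistics were given for the 6 with the largest and the 6 with the smallest change in Mbnl1KO against WT, those not called, the 3 most abundant, both arms of the 3 hairpins with the smallest arm p, and any called in Mbnl2KO. The miRNAs and lists were chosen with earlier results of these data known.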

Additional observations from a re-analysis of the deposited data

How the results depend on the processing

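The number of cluster miRNAs called in Mbnl1KO against WT ran from 17 to 22 with 1 library left out, and was 13 of 13 with a mean normalized count above 100, where fewer miRNAs were tested. The replicate numbers gave no sign of pairing. Correlations of same-numbered libraries ran from -0.161 to 0.142 and those of other pairs from -0.233 to 0.163, which cannot exclude that mice were paired. With the replicate block 19 were called, with 18 in Mbnl1KO against Mbnl2KO and 0 in Mbnl2KO against WT. In Mbnl2KO against WT 0 were called under every alternative. Arm shifts called in the cluster, 1 in the main analysis, were 2 with the replicate block, 2 with a pseudocount of 5, 2 with a minimum of 1 count, 0 of 3 hairpins with a minimum of 100 (miR-329 was then not tested), and 1 to 3 with a library left out.

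The Mbnl1KO to WT ratio of the share of counts went from 3.34 to 2.84 without miR-1a-3p in the total, and the median log2 fold change from 1.12 to 1.43 with library totals in place of TMM. The rank correlation with position was 0.45 for the more abundant arm and 0.22 above a mean of 100, and 0.47 to 0.56 with a library left out. The log2 change of the ratio of the last to the first 12 hairpins, -0.04, became -0.57 without the most abundant miRNA of each set and 0.45 as a difference of medians. Directions turned in Mbnl1KO against WT for miR-329-3p (0.034 with library totals) and miR-154-5p (-0.18 to 0.44 with a library left out, lowest without WT replicate 1). In Mbnl1KO against Mbnl2KO they turned for miR-329-3p (0.025 with library totals), miR-379-5p (-0.12 to 1.06, lowest without Mbnl2KO replicate 1), miR-154-5p (-0.54 to 0.17, highest without Mbnl2KO replicate 2) and miR-134-5p (-0.0089 with DESeq2's size factors, -0.015 with DESeq2 and -0.087 to 0.15 with a library left out). None of these turned values was called. The cause was not tested. For rare miRNAs, the few counts per library in the deposited table limit what can be detected.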
